A study of Rattus norvegicus with 8 samples.

Results

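Serotonin receptor genes were followed in the hippocampus of rats after self-stimulation of the brain (ICSS, intracranial self-stimulation), in which an animal works for short bursts of rewarding current in its own lateral hypothalamus. The genes were the 10 receptor genes Htr1a, Htr1b, Htr1d, Htr1f, Htr2a, Htr2c, Htr3a, Htr4, Htr5b and Htr7, chosen by the gene symbol that the array annotation gives to each feature. All 10 were found, with 36 of the 45220 features of the array. They make up 10 of the 34738 units tested, a unit being a named gene (the mean over its features) or a single probe without a gene name. All animals were male Wistar rats of 13 weeks with an electrode implanted in the brain, and 3 rats were pooled for each sample. Rats of both groups had 7 days of recovery and a training session of 20 min. In the ICSS group (4 pools) the rats had taken 2500 stimulation trains of 0.3 s at 50 Hz, with current intensities between 10 and 400 µA set for each animal. In the Sham group (4 pools) the rats had spent 40 min in the box without current. Each pool of hippocampi, taken from the side of the electrode, was labelled with Cy5 and hybridised against 1 Cy3-labelled common reference of brain tissue, so a value is the log2 of the pool's signal over the reference's, with dyes never swapped.

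Serotonin reaches the hippocampus through fibres of the raphe nuclei and acts there on receptors of several classes. Most are G protein-coupled: the type 1 and type 5 receptors act through inhibitory G proteins, the type 2 receptors through phospholipase C, and the type 4, type 6 and type 7 receptors through stimulation of adenylyl cyclase, while the type 3 receptors are ion channels. In hippocampal neurons the 1A receptor opens inwardly rectifying potassium channels and lowers excitability, and the raphe neurons carry the same receptor as an inhibitory autoreceptor.

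The tissue label was set against marker genes first. Neurod6, a gene of pyramidal neurons, lay between 1.39 and 1.95 over the 8 pools, and C1ql2, a gene of dentate granule cells, between 1.76 and 2.75. Slc17a6, the vesicular glutamate transporter of thalamic neurons, lay between -3.04 and -1.85 and Prkcd, also strong in the thalamus, between -2.98 and -1.71. The Sham mean was above 0 for 5 of 5 measured CA1 markers, for 6 of 10 that mark CA2 or CA3 and for 6 of 9 that mark the dentate gyrus. Of 16 thalamic markers, 14 had a Sham mean below 0. The labels of the reference channel name hippocampus, thalamus and cortex, while the design text names hippocampus alone. Sham replicate 4 stood apart from the rest, with array correlations of 0.586 to 0.779 against 0.722 to 0.873 among the other 7 arrays, and receptor differences that moved by over 1.5 times without it are given without it as well.

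Against the reference, Htr5b and Htr1a were above 0 in all 8 pools, which held for 12.5% of all units. Htr1d, Htr2a and Htr2c were below 0 in all 8 pools, which held for 16.7% of all units. The other 5 genes, Htr1b, Htr1f, Htr3a, Htr4 and Htr7, had pools on both sides of 0. These ratios compare 1 gene between 2 tissues and say nothing of how abundant one receptor mRNA is beside another. The reference was 1 pool of RNA and no dye swap was made, so no test was applied to them.

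**Figure D1:**
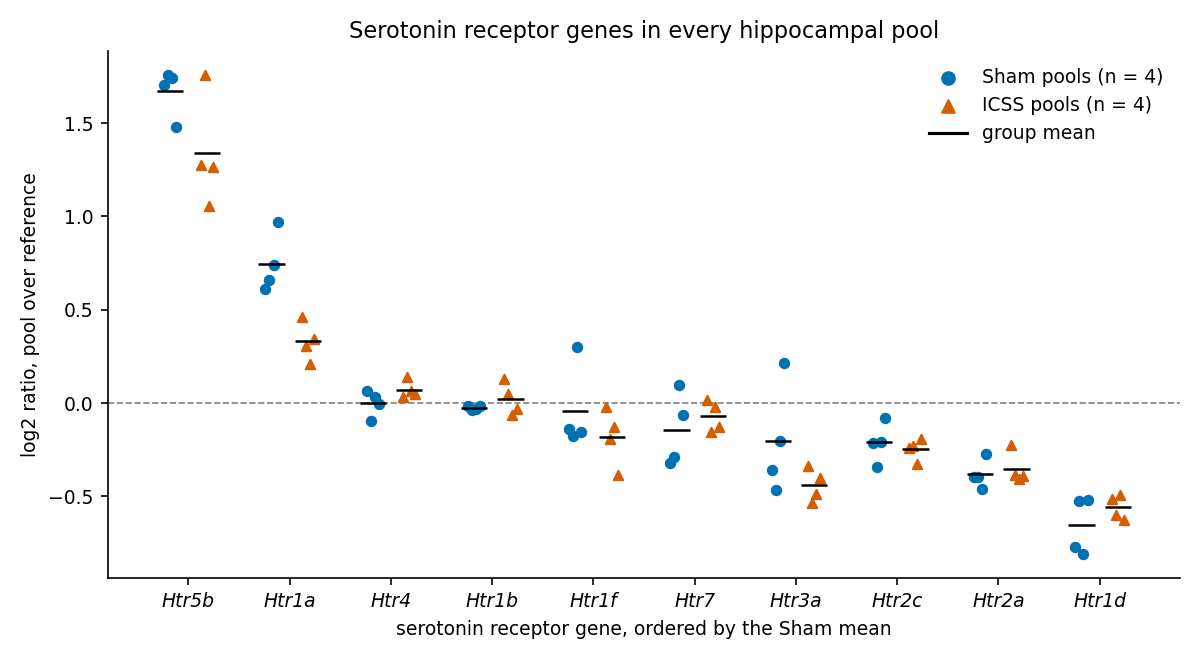
Log2 ratio of each hippocampal pool over the common reference (vertical axis) for the 10 serotonin receptor genes (horizontal axis, ordered by the Sham mean), with circles for the 4 Sham pools, triangles for the 4 ICSS pools and a bar for each group mean. Htr5b and Htr1a lie above 0 in every pool, and Htr1a is the gene whose ICSS pools, at 0.21 to 0.46, all lie below its Sham pools, at 0.61 to 0.97.

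The comparison of ICSS with Sham asked how self-stimulation changes hippocampal expression. In limma, adjusted over all 34738 units, 0 of the 10 receptor genes passed the threshold of 0.05, where 0.0461% of all units passed. At an unadjusted limma p below 0.05 stood 2 of the 10, Htr1a and Htr5b, both lower in ICSS pools, where 12.6% of all units did. Of the 10 genes, 5 had a lower mean in ICSS pools, near the 47.2% of all units with a lower mean. The median difference over the 10 genes was -0.0037 on the log2 scale, against 0.0078 over all units, and the median size of the difference was 0.086 against 0.076. The 10 genes were split evenly by direction, and 7 of them differed by less than 0.15 in size.

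**Figure D2:**
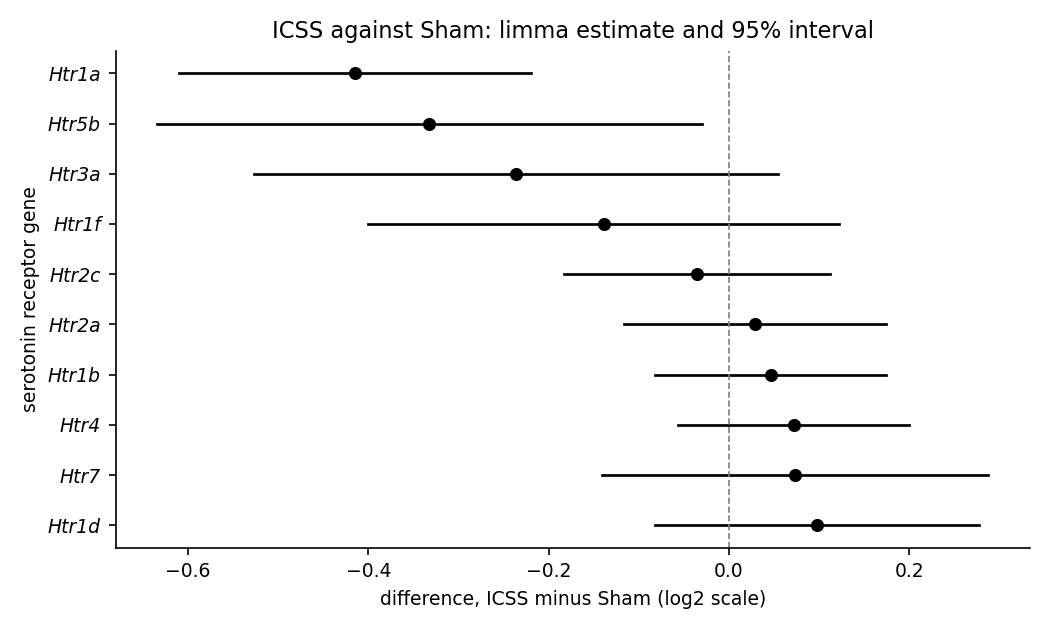
Difference between ICSS and Sham pools on the log2 scale (horizontal axis, ICSS minus Sham, n = 4 pools each) for each receptor gene, with the 95% interval of limma as a line. The intervals of Htr1a (-0.61 to -0.22) and Htr5b (-0.63 to -0.030) lie below 0 before adjustment, and those of the other 8 genes include 0.

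Htr1a, the gene of the 1A receptor, which couples to inhibitory G proteins, showed the largest difference of the 10. Its log2 ratio was 0.61, 0.66, 0.74 and 0.97 in Sham replicates 1 to 4 and 0.46, 0.31, 0.21 and 0.34 in ICSS replicates 1 to 4. All ICSS pools lay below all Sham pools, as they did in 3.66% of all units, and Htr1a was 1 of 10 receptor genes to show this. The ICSS mean was 0.33 ± 0.10 and the Sham mean 0.75 ± 0.16 (SD, n = 4 each), 1.33-fold lower in ICSS. The difference was -0.42 (SE 0.088, 95% interval -0.61 to -0.22), with an unadjusted limma p of 0.000827, rank 199 of 34738 units, and a limma adjusted p of 0.144, so it did not pass. A two-sided exact permutation test of Htr1a gave p = 0.0286, the smallest that 70 assignments of 4 against 4 pools allow, and 1 of 10 receptor genes reached that value. Without Sham replicate 4, its highest pool, the difference was -0.34 (limma adjusted p = 0.211). In hippocampal tissue as a whole, fewer cells that carry the receptor and less mRNA per cell cannot be told apart.

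The array carried 11 Htr1a features, more than for any other receptor here except Htr2a, and they allow the gene to be read many times on each array. All 11 had a lower mean in ICSS pools, by 0.25 to 0.50, and in 9 of the 11 no ICSS pool reached a Sham pool, as in 3.77% of all features. Of these features 10 are annotated to the RefSeq transcript NM_012585, with means over the 8 pools between 0.35 and 0.52. The other, annotated to GenBank record J05276, stood higher against the reference, at 1.04, 1.09, 0.78 and 0.95 in ICSS replicates 1 to 4 and 1.41, 1.35, 1.29 and 1.73 in Sham replicates 1 to 4. Features of both records thus differed in their ratio to the reference but gave close differences between the groups, -0.48 for J05276 and -0.50 to -0.25 for the others. Among the NM_012585 features the SD within 1 array was 0.067 to 0.22, the top of that range coming from a spot at -0.38 in ICSS replicate 2. The sources used here do not say whether they share 1 sequence. Features of 1 array share their RNA and are no replicates of the condition. Tested singly, with adjustment over all 45220 features, 0 of the 36 features passed (limma adjusted p of Htr1a features from 0.068 to 0.287), where 0.117% of all features did. At an unadjusted limma p below 0.05 stood 12 of the 36, the 11 of Htr1a and the 1 of Htr5b, where 13.3% of all features did. Averaged by record first, a choice made after seeing the data, the Htr1a mean was 1.06 in Sham and 0.62 in ICSS pools and the difference -0.44 (limma adjusted p = 0.135).

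**Figure D3:**
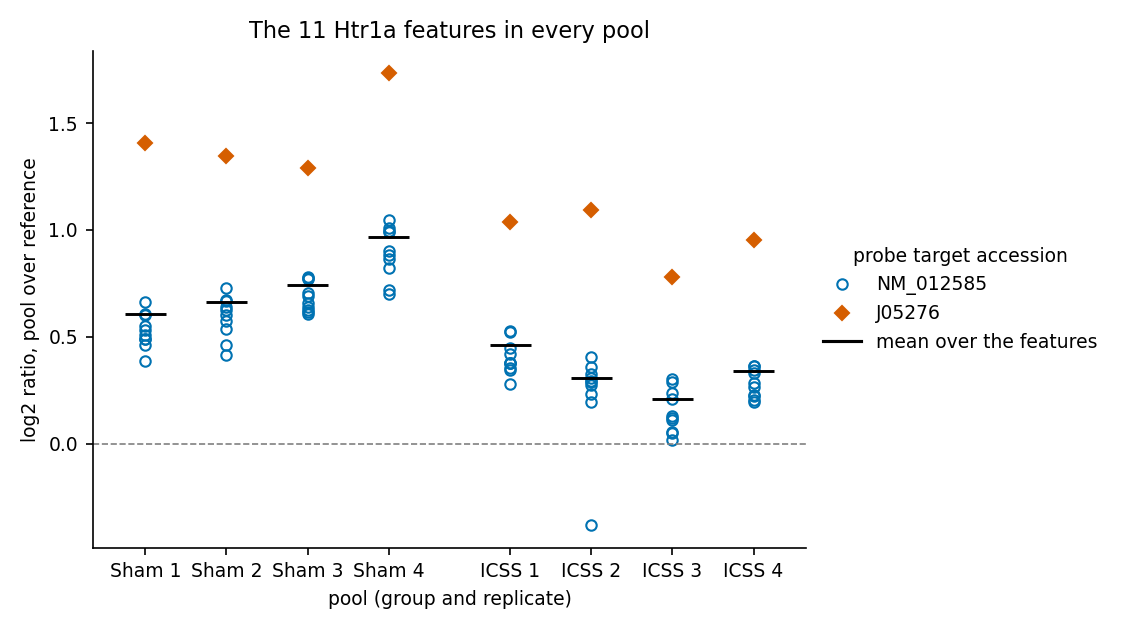
Log2 ratio over the reference (vertical axis) of the 11 Htr1a features in each Sham and ICSS pool (horizontal axis), with open circles for the 10 features of NM_012585, diamonds for the feature of J05276 and a bar for the mean over all 11. The feature means are 0.61 to 0.97 in Sham pools and 0.21 to 0.46 in ICSS pools, and the diamonds show the same step at higher ratios.

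Htr1b, Htr1d and Htr1f encode the other receptors of the type 1 class that were followed, of which 1B and 1D act mainly at nerve endings. Htr1b lay close to the reference, between -0.039 and -0.015 in the Sham pools, and at 0.13, 0.046, -0.061 and -0.029 in ICSS replicates 1 to 4. Its Sham pools spanned a narrow range (SD 0.011, n = 4) inside the wider ICSS range (SD 0.085, n = 4), and the difference of 0.046 had a 95% interval of -0.082 to 0.17. It was 0.010 without ICSS replicate 1 and 0.074 without ICSS replicate 3. Htr1d had the lowest mean ratio of the 10 genes when single features were averaged, though Htr2a was lower when its features were averaged by record. Htr1d was at -0.77, -0.52, -0.81 and -0.52 in Sham replicates 1 to 4 and -0.51, -0.60, -0.49 and -0.63 in ICSS replicates 1 to 4. The groups overlapped, with a difference of 0.098 and a 95% interval of -0.082 to 0.28, and the difference was 0.060 without Sham replicate 1 and 0.047 without Sham replicate 3. Htr1f lay at -0.14, -0.18, 0.30 and -0.15 in Sham replicates 1 to 4 and at -0.020, -0.19, -0.13 and -0.38 in ICSS replicates 1 to 4. Its Sham replicate 3 was the single pool above 0. The difference was -0.14 (95% interval -0.40 to 0.12), -0.025 without Sham replicate 3 and -0.071 without ICSS replicate 4. Each of these 3 genes rests on 1 feature, and none passed (limma adjusted p from 0.644 to 0.769).

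Htr5b, whose receptor belongs to the type 5 class of rodents, had the highest ratio to the reference of the 10 genes. The log2 ratios were 1.71, 1.76, 1.74 and 1.48 in Sham replicates 1 to 4 and 1.28, 1.76, 1.05 and 1.27 in ICSS replicates 1 to 4. ICSS replicates 1, 3 and 4 lay below every Sham pool, while ICSS replicate 2 lay level with the highest of them. The ICSS mean was 1.34 ± 0.30 and the Sham mean 1.67 ± 0.13 (SD, n = 4 each), a difference of -0.33 (SE 0.14, 95% interval -0.63 to -0.030; limma adjusted p = 0.355). The exact permutation p was 0.114. Leaving out ICSS replicate 2 gave -0.47 (limma adjusted p = 0.259), and leaving out ICSS replicate 3 gave -0.24 (limma adjusted p = 0.597). Htr5b rests on 1 feature, so no second probe could be set beside it.

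Markers of the CA1 field, where both receptors are known to be expressed, were set beside these genes. Of 9 CA1 markers listed, 5 were measured, and all 5 had a lower mean in ICSS pools, where 47.2% of all units had. Of the 5, 0 passed the limma threshold and 2 stood at an unadjusted limma p below 0.05, where 6.03% of all units were lower at that level. Their median was 0.49, 0.92, 0.64 and 0.53 in Sham replicates 1 to 4 and 0.25, 0.62, 0.27 and 0.21 in ICSS replicates 1 to 4. ICSS replicate 2, the ICSS pool with the highest Htr5b value, also had the highest CA1 median of its group, and Wfs1, a CA1 gene, was at 0.78 there against 0.12 to 0.35 in the other ICSS pools. Htr1a was at 0.31 in ICSS replicate 2, below its 0.46 in ICSS replicate 1. Wfs1 was at 0.19 in Sham replicate 4, the pool with the highest Htr1a value. The CA1 median of that pool, 0.53, lay within the range of the other Sham pools. C1ql2, of dentate granule cells that also carry the 1A receptor, ranged from 1.76 to 1.95 over the ICSS pools. Over the Sham pools it ranged from 2.20 to 2.75. All its ICSS pools thus lay below its Sham pools, as in 3.66% of all units, with a difference of -0.58 (SE 0.11, limma adjusted p = 0.123). The dentate list as a whole did not share this direction: of 9 measured markers, 3 had a lower and 6 a higher mean in ICSS pools. Over these 9 the middle value of ICSS minus Sham was 0.069, and 0 passed the limma threshold. Of the 9, 4 stood at an unadjusted limma p below 0.05, where 12.6% of all units did. The median of the 9 markers overlapped, with ICSS pools at 0.14 to 0.37 and Sham pools at 0.15 to 0.30. That of 8 markers of all hippocampal fields overlapped as well, at 0.37 to 0.63 and 0.58 to 0.77. Markers of CA2 or CA3 mostly went the other way from those of CA1. Among the 10 measured, 9 were higher and 1 was lower after ICSS, and their middle difference was 0.11. None passed the limma threshold, and 1 stood at an unadjusted limma p below 0.05. Their median overlapped too, with ICSS pools at 0.072 to 0.51 and Sham pools at 0.14 to 0.35. The part of the tissue taken in the receptor differences was not tested.

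**Figure D4:**
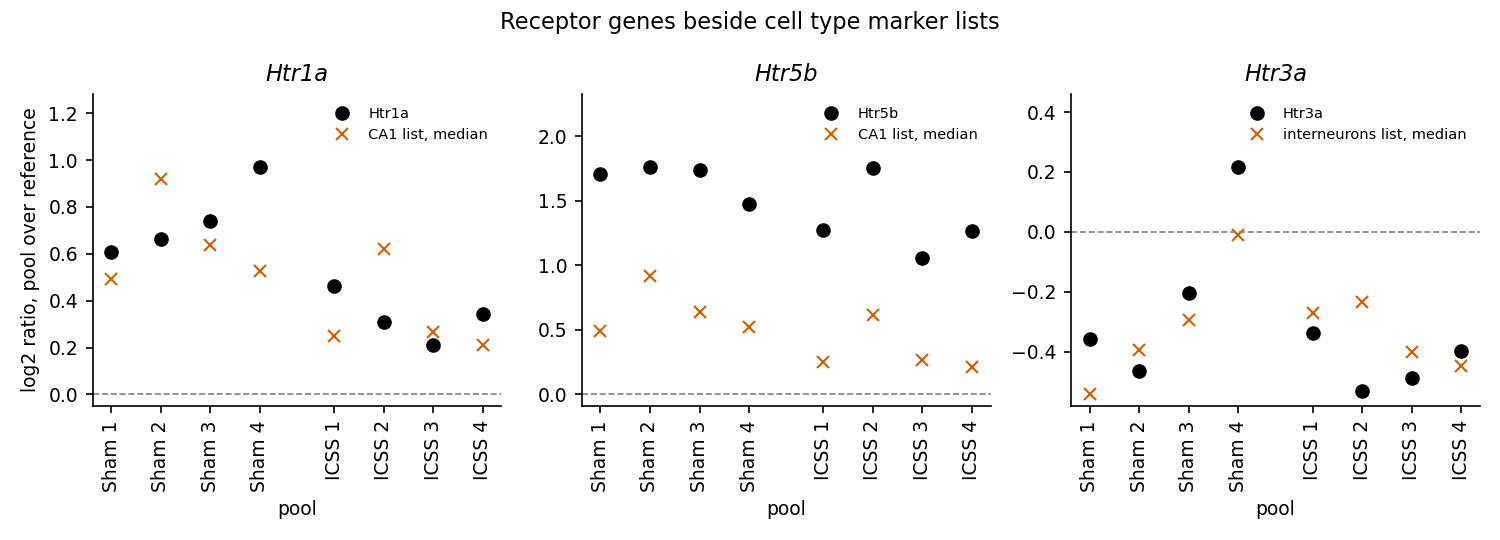
Log2 ratio over the reference (vertical axes) in each Sham and ICSS pool (horizontal axes) for Htr1a, Htr5b and Htr3a (circles), each beside the median of a cell type marker list (crosses): CA1 for the first panels and interneurons for Htr3a. The highest ICSS value of Htr5b (1.76) and the highest ICSS median of the CA1 list (0.62) are both in replicate 2, and the highest values of Htr3a (0.22) and of the interneuron list (-0.0096) are both in Sham replicate 4. In ICSS replicate 2, Htr3a has its lowest value (-0.53) while the interneuron list has its highest ICSS median (-0.23).

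The RefSeq table of promoters (build GRCr8, 250 bases before to 50 bases after the start) held 6 of the 10 genes, Htr1b, Htr1d, Htr1f, Htr2c, Htr5b and Htr7, and not Htr1a, Htr2a, Htr3a or Htr4. The promoters of Htr5b and Htr1d, the genes with the highest and the lowest ratio to the reference in means over single features, are shown 5′ to 3′ on the gene's strand, with GC boxes (GGGCGG) and E-boxes (CANNTG), searched on both strands, in capitals. A CRE half-site (TGACG), the core of the element that CREB and CREM bind, was searched as well and is in neither.
Htr5b, chr13:35252537-35252836, minus strand: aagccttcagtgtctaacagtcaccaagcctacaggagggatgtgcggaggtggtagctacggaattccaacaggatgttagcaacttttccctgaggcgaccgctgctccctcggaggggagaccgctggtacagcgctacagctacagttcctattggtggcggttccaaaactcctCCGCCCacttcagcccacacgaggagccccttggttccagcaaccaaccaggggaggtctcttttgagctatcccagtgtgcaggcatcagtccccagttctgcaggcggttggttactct
Htr1d, chr5:153939485-153939784, plus strand: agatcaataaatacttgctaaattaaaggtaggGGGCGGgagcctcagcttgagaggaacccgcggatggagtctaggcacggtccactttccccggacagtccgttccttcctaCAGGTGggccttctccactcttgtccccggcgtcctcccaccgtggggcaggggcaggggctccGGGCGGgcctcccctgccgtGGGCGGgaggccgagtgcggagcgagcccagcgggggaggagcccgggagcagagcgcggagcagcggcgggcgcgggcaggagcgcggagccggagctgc
Htr1d held 3 GC boxes and 1 E-box in a window of 69.3% G and C, and Htr5b 1 GC box, read on the other strand as CCGCCC, in a window of 57.0%. Of all 33469 promoters of this length, 33.1% held a GC box, 72.1% an E-box and 21.2% a CRE half-site. Of the 6 receptor promoters, 1 held a CRE half-site, that of Htr7, and 0 held the full CRE (TGACGTCA), which 1.83% of all promoters held. These matches describe the letters of the windows alone.

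Htr2a and Htr2c encode the receptors that act through phospholipase C. Htr2a lay at -0.39, -0.40, -0.46 and -0.27 in Sham replicates 1 to 4 and at -0.22, -0.39, -0.41 and -0.39 in ICSS replicates 1 to 4. The groups overlapped, with a difference of 0.028 (95% interval -0.12 to 0.17; limma adjusted p = 0.885). A change of the size seen in Htr1a lay outside this interval, which is that of the mean over features. The sign turned without ICSS replicate 1, at -0.015, and the difference was 0.046 without ICSS replicate 3. Leaving out Sham replicate 3 gave 0.0026, and leaving out Sham replicate 4 gave 0.064. Behind this gene mean stood 14 features with unlike ratios to the reference. The feature of GenBank record DY471163 lay at -2.20, -2.11, -1.46 and -0.76 in Sham replicates 1 to 4 and between -1.67 and -1.28 in ICSS pools. Its difference was 0.084 with an SE of 0.27, so this feature alone sets no such limit. The feature of M64867 had a mean of -0.77 over the 8 pools, the 10 features of NM_017254 had means from -0.38 to -0.096, and the 2 of AF203812 had means of -0.059 and -0.043. The sources used here do not say which part of the transcript each probe covers. Averaged by record first, a choice made after seeing the data, the mean was -0.70 in Sham and -0.64 in ICSS pools, below those of Htr1d (-0.66 and -0.56), against -0.38 and -0.35 over single features, and the difference was 0.058 (limma adjusted p = 0.860). Of the 14 features, 4 were lower in ICSS pools and 10 higher.

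**Figure D5:**
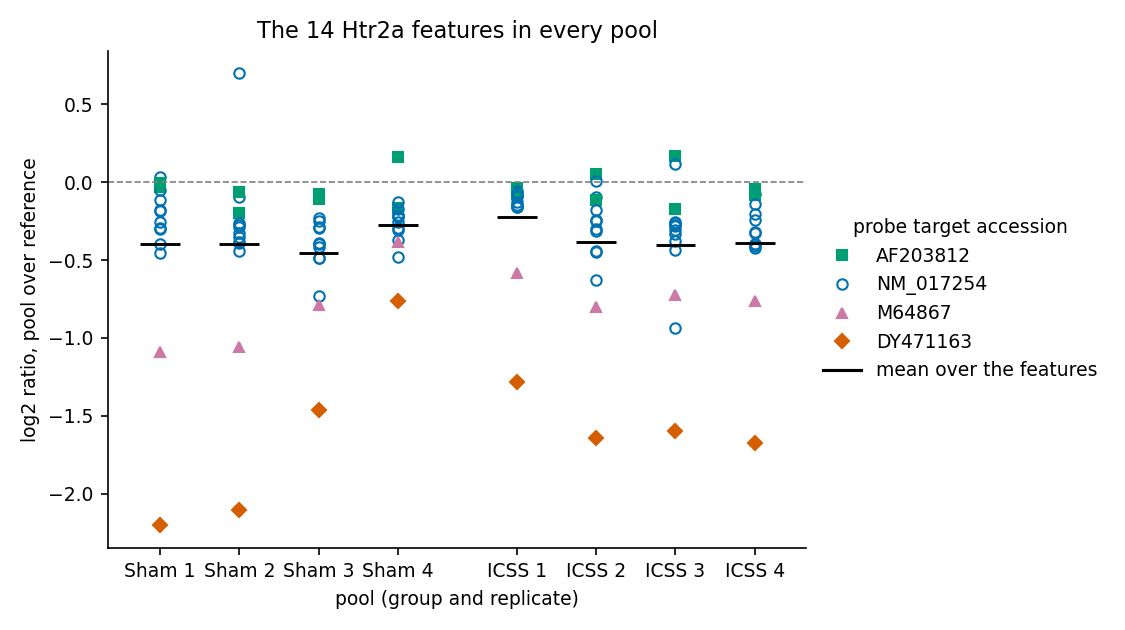
Log2 ratio over the reference (vertical axis) of the 14 Htr2a features in each Sham and ICSS pool (horizontal axis), with a symbol for each record the probe is annotated to and a bar for the mean over all 14. The DY471163 feature spans -2.20 to -0.76 among the Sham pools, and the bars stay between -0.46 and -0.22.

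Htr2c lay at -0.21, -0.34, -0.21 and -0.080 in Sham replicates 1 to 4 and at -0.24, -0.23, -0.32 and -0.19 in ICSS replicates 1 to 4. The groups overlapped, with a difference of -0.036 (95% interval -0.18 to 0.11; limma adjusted p = 0.853), which turned to 0.0076 without Sham replicate 4. It was -0.079 without Sham replicate 2, -0.0097 without ICSS replicate 3 and -0.054 without ICSS replicate 4. Its 2 features differed by -0.086 and 0.015. The choroid plexus, the epithelium that makes cerebrospinal fluid, is the richest known source of this receptor's mRNA, and its content varied between the pools. Ttr, its transthyretin gene, was at 1.03 in Sham replicate 1 and at -2.41 in Sham replicate 4. The median of 15 measured choroid plexus markers was 0.68 in Sham replicate 1 and -0.78 in Sham replicate 4, and lay between -0.38 and 0.030 in ICSS pools. Sham replicate 4, with the lowest choroid plexus median of all pools, had the highest Htr2c value, -0.080. Htr2c was at -0.21 in Sham replicate 1, where that median was highest. The part of choroid plexus content in the Htr2c values was not tested.

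Htr3a, the channel-forming receptor subunit that hippocampal interneurons express, lay at -0.36, -0.46, -0.21 and 0.22 in Sham replicates 1 to 4 and at -0.34, -0.53, -0.49 and -0.40 in ICSS replicates 1 to 4. Sham replicate 4 was the single pool above the reference, and the SD was 0.30 in Sham and 0.088 in ICSS pools (n = 4 each). The difference was -0.24 (95% interval -0.53 to 0.054; limma adjusted p = 0.487) and -0.097 (limma adjusted p = 0.704) without Sham replicate 4. The median of 17 measured interneuron markers was also highest in that pool, at -0.0096, against -0.54 to -0.29 in the other Sham pools and -0.45 to -0.23 in ICSS pools. Gad2, the gene of a GABA-synthesising enzyme, was at -0.24 there, against -0.67 to -0.45 in the other Sham pools, and ranged from -0.45 to 0.034 over the ICSS pools. In ICSS replicate 2 the order was the other way, with Htr3a at -0.53, its lowest value over all pools. In that pool Gad2 was at 0.034, its highest value over all pools, and the interneuron median at -0.23, the highest in ICSS pools. The part of interneuron content in the Htr3a values was not tested.

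Htr4 and Htr7 encode receptors that raise cyclic AMP. Htr4 stayed near the reference, at 0.064, -0.098, 0.034 and -0.0032 in Sham replicates 1 to 4 and at 0.031, 0.14, 0.065 and 0.048 in ICSS replicates 1 to 4. All ICSS pools were above 0, but the groups overlapped, with a difference of 0.072 (95% interval -0.056 to 0.20), or 0.039 without Sham replicate 2. Of its 2 features, the one annotated to NM_012853 differed by 0.15 and the one annotated to BF401317 by -0.0020. Htr7 lay at -0.32, -0.29, 0.098 and -0.065 in Sham replicates 1 to 4 and at 0.014, -0.15, -0.022 and -0.13 in ICSS replicates 1 to 4. Its Sham pools enclosed all ICSS pools, and the difference was 0.074 (95% interval -0.14 to 0.29), 0.014, 0.025 and 0.15 without Sham replicates 1, 2 and 3 in turn and 0.045 without ICSS replicate 1. The limma adjusted p was 0.633 for Htr4 and 0.781 for Htr7.

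For 9 of the receptor genes the named gene with the most similar values over the 8 pools was looked up, with Pearson's r as a description. For Htr1a this was Ncam1, a neural cell adhesion gene, at r = 0.9945, with a mean of 0.10 in ICSS and 0.34 in Sham pools. For Htr5b it was Ncor1, a nuclear receptor corepressor gene, at r = 0.971. For the other 7 the closest gene was Tsn for Htr1b, Mat1a for Htr1d, Myh7b for Htr1f, Atp1b1 for Htr2a, Klhl26 for Htr2c, Ndufa12 for Htr4 and Dusp1 for Htr7, at r from 0.9406 for Htr4 to 0.9851 for Htr1b. Each r is the highest among all named genes over 8 points from the same arrays, so such heights carry no weight of their own.

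Of the other genes of serotonin signalling, 66 of 68 listed were measured, and 0 passed the threshold in either direction. The 4 receptor genes outside the 10, Htr2b, Htr3b, Htr5a and Htr6, had overlapping groups. Among them Htr3b, the second subunit of the channel, differed by 0.099 (95% interval -0.046 to 0.24) and Htr6 by 0.060 (95% interval -0.085 to 0.20), or 0.014 without Sham replicate 4 and 0.037 without ICSS replicate 4. In the list of synthesis, transport and breakdown, 10 of 14 genes had a higher and 4 a lower mean in ICSS pools, and the list median was 0.078. At an unadjusted limma p below 0.05 stood 2 of the 14, both lower, where 6.03% of all units were lower at that level. Ddc, which encodes the decarboxylase that makes serotonin and dopamine, was at -0.37, -0.34, -0.30 and -0.71 in ICSS and -0.11, 0.098, -0.15 and -0.15 in Sham replicates 1 to 4. Its groups did not overlap, with ICSS lower, as in 3.66% of all units, and the difference was -0.35 (SE 0.099, limma adjusted p = 0.205). Maob, an amine-degrading oxidase gene, was below 0 in every ICSS pool and above 0 in every Sham pool. Such a separation with ICSS lower held for 3.66% of all units, and the Maob difference was -0.16 (SE 0.062, limma adjusted p = 0.340).

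Among 29 measured G protein and effector genes, 15 were higher and 14 lower, with a median of 0.0068. At an unadjusted limma p below 0.05 stood 3, all higher, where 6.61% of all units were higher at that level. Kcnj6, a subunit gene of the inwardly rectifying potassium channel that the 1A receptor opens, was at 0.59, 0.55, 0.51 and 0.62 in ICSS and at 0.48, 0.24, 0.42 and 0.35 in Sham replicates 1 to 4. This gene is named for having the smallest p of its list. The Kcnj6 difference was 0.19 (SE 0.064, limma adjusted p = 0.275). Kcnj9, another subunit gene of that channel, differed by 0.28 (SE 0.11, limma adjusted p = 0.317), with groups that overlapped. The remaining subunit genes of the channel family, Kcnj3 and Kcnj5, named after their values were seen, differed by 0.035 (limma adjusted p = 0.877) and -0.15 (limma adjusted p = 0.750), and each turned its sign when 1 pool was left out (-0.0059 for Kcnj3 without ICSS replicate 2, 0.048 for Kcnj5 without Sham replicate 1).

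Among 19 measured receptor partners and regulators, 7 were higher and 12 lower, with a median of -0.11. At an unadjusted limma p below 0.05 stood 5 that were lower and 2 that were higher, where 6.03% of all units were lower and 6.61% higher at that level. Hes5, a transcriptional repressor gene that has been described as a regulator of Htr1a, was at -0.51, -0.38, -0.41 and -0.38 in ICSS and at -0.20, -0.19, -0.089 and 0.26 in Sham replicates 1 to 4. Its groups did not overlap, with ICSS lower, as in 3.66% of all units, and the difference was -0.37 (SE 0.10, limma adjusted p = 0.195). Grk5, a receptor kinase gene, had a mean of -0.13 in ICSS pools (SD 0.046) and -0.30 in Sham pools (SD 0.043), and differed by 0.18 (SE 0.053, limma adjusted p = 0.231). None of these genes passed after adjustment, as was the case for Htr1a itself.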

How the data were processed

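The deposited values are log2 ratios, 1 for each feature on each array, of the Cy5-labelled pool over the Cy3-labelled reference per the labels. The submitters' processing notes name limma with no version. The sources used here do not give the background correction, the normalization or the base of the logarithm, which was taken as 2 because limma works in log2. Spot intensities were not used here, so dim spots could not be left out. Precision is limited by having 8 arrays. Of 45220 features, 25353 had 1 gene symbol in the platform annotation, 48 had several and the rest none listed. Symbols were updated through Entrez identifiers to the GRCr8 gene table (25306 features matched). Features of a gene were averaged, giving 14871 genes and 19867 unnamed probes.

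ICSS was set against Sham with the functions lmFit and eBayes of limma 3.58.1 (R 4.3.3), two-sided and without covariates, adjusted by Benjamini-Hochberg over all 34738 units with a threshold of 0.05. Differences are ICSS minus Sham with the moderated SE. The procedure was tested on simulated data. The receptor genes and all gene lists were chosen with earlier results of these data known. Named were the 10 receptor genes, the 2 genes of smallest p in each list of serotonin signalling, the closest genes by Pearson's r (2 were looked up for each receptor, the closest is given, and that of Htr3a is not reported here) and 7 fixed marker genes. Kcnj3 and Kcnj5 were added after their values were seen. Alternatives covered array scaling, moderation, array weights, a replicate block, the summary of features and single pools left out.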

Additional observations from a re-analysis of the deposited data

Results flagged for a closer look

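In groups of 4 pools, a value was singled out where its gap to the nearest other pool exceeded Dixon's 95% critical value as a share of the group's whole range. Of 20 groups (10 receptor genes, 2 groups each) 2 had such a value, and chance gives about 1 in 20. Htr1f stood at 0.30 in Sham replicate 3, against -0.18 to -0.14 in the other Sham pools, a gap of 0.912 of the range. In ICSS replicate 1 Htr2a stood at -0.22, while the other ICSS pools lay at -0.41 to -0.39, a gap of 0.891 of the range.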

How the results depend on the processing

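The number of receptor genes called was 0 in limma under all 19 alternatives run. With each feature a unit, a gene was read from its feature nearest the median. On these values the smallest limma adjusted p of any of the 10 lay between 0.0846 and 0.353, and Htr1a was lower in ICSS pools by 0.34 to 0.49. Over all 11 Htr1a features the smallest adjusted p was 0.068, and the differences ran from -0.50 to -0.25. Of 190 recomputed differences of single genes, 187 kept their direction and stayed above the threshold. The exceptions were Htr2a without ICSS replicate 1 (-0.015, in a range of -0.015 to 0.064 over pools left out) and Htr2c without Sham replicate 4 (0.0076, in a range of -0.079 to 0.0076) or with each feature a unit (0.015). Part of the 190 could not change direction. The replicate block, the changes of moderation and the fit on named genes alone leave every difference as it is. The same holds for the summary of features in genes with 1 feature. In such cases only the SE and p could move. The level of Htr1b in Sham pools turned to 0.00027 with each array centred on its median. The number of genes on 1 side of the reference in all pools was 5 with all pools. It depended on single pools, as Htr3a was above 0 in Sham replicate 4 alone and Htr1f in Sham replicate 3 alone. Calls over all units numbered 16, and 34 with array quality weights, 53 with each feature a unit, and 0 to 153 when single pools were left out. Dropping ICSS replicates 1 to 4 in turn gave 153, 0, 0 and 6 calls, and dropping Sham replicates 1 to 4 gave 1, 10, 1 and 14. The cause was not tested. With the replicate block, limma called 0 units (4543 at an unadjusted p below 0.05), and the deviations of same-numbered pools correlated at -0.053 to 0.058, with 0 of 8 pools closest to their own number, so the numbers were not taken as pairs.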
